A study of Mus musculus with 12 samples.

Results

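The granule exocytosis and SNARE machinery genes were examined in Min6, an insulin-secreting cell line that was derived from a mouse β cell tumour. The 51 genes were listed by name and by function, not by any value measured here, but with earlier results of these data known. They fall into 7 roles: target SNAREs, vesicle SNAREs, synaptotagmins, priming and clamping proteins, Rab GTPases and their effectors, SNARE disassembly proteins, and granule cargo and vesicle proteins. Of these, 50 had a transcription start site (TSS) in the annotation used and are described below, beside 21705 other protein-coding genes on chromosomes 1 to 19 and X. *Vamp7* was not analysed here. Cells received either DMSO, the vehicle, or the JNK inhibitor SP600125 at 20 µM (JNKi), in both cases over 48 hours. Chromatin was profiled by CUT&RUN, in which an antibody directs a nuclease to cut out the DNA it is bound to. Antibodies were against cJun, against histone H3 trimethylated at lysine 4 (H3K4me3, a mark of active promoters) or a non-specific IgG, giving 6 groups of 2 biological replicates and 12 samples in all. A single peak list per treatment was deposited for cJun and for H3K4me3, each holding the peaks that both replicates shared, so every count below rests on 1 list per treatment and has no replicate error of its own. The lists keep the width and −log10 p of each replicate in separate columns, which are given below in the order of the columns. The IgG samples were not analysed here, and the lists give no read counts behind a peak.

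Insulin leaves the β cell through regulated exocytosis. A vesicle SNARE on the granule (VAMP) pairs with target SNAREs on the plasma membrane (syntaxin and SNAP25), synaptotagmins couple calcium entry to fusion, Munc13, Munc18 and CAPS proteins prime the complex, Rab3 and Rab27 with their effectors dock the granule, and NSF with α-SNAP takes spent SNARE complexes apart. Granins such as the secretogranins and VGF are packed into the granule with insulin. cJun is a subunit of the AP-1 transcription factor and is phosphorylated by JNK. It binds AP-1 sites and, paired with ATF family partners, the cyclic AMP response element (CRE).

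The lists held 19372 H3K4me3 peaks in DMSO and 19032 in JNKi, but 4960 cJun peaks in DMSO against 1632 in JNKi. In each list the −log10 p of a peak was the lower of its replicate values. Of 10 β cell markers, 9 carried an H3K4me3 peak at a TSS in both lists (*Ins1* did not), against 0 of 4 acinar, 0 of 3 duct, 0 of 3 leukocyte and 0 of 2 δ cell markers. Marks were also present at *Gcg* and *Irx2* of 3 α cell markers, at *Col1a1* of 3 fibroblast markers, and in DMSO at *Gad1* and *Slc17a7* of 3 neuron markers. In DMSO these had percentiles of −log10 p among all H3K4me3 peaks from 2.85 (*Gcg*) to 35.5 (*Slc17a7*). The 9 marked β cell genes ran from 8.51 (*Pdx1*) to 98.0 (*Isl1*), with a median of 89.2.

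Nearly all exocytosis genes carried the promoter mark. An H3K4me3 peak lay within 3 kb of a TSS at 48 of 50 genes in DMSO, against 60.5% of other protein-coding genes, and at 46 of 50 in JNKi, against 60.0%. All 6 target SNAREs were marked in both lists, as were all 5 vesicle SNAREs analysed, both disassembly genes and all 5 granule cargo and vesicle genes. No gene of the set shared its 3 kb window with the TSS of another protein-coding gene, whereas 15.5% of other genes did. The exceptions were few and lay among the synaptotagmins, the Rab genes and the priming factors. *Syt16*, a synaptotagmin without calcium binding, and *Rab27b*, the GTPase paralogue of *Rab27a*, had no peak in either list. *Doc2b*, which encodes a calcium-binding protein that promotes fusion, and *Rab3c*, a granule Rab, were marked in the DMSO list only. A DMSO-only mark occurred at 0.954% of other genes and a JNKi-only mark at 0.382%, the latter at 0 of the 50 exocytosis genes.

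**Figure D1:**
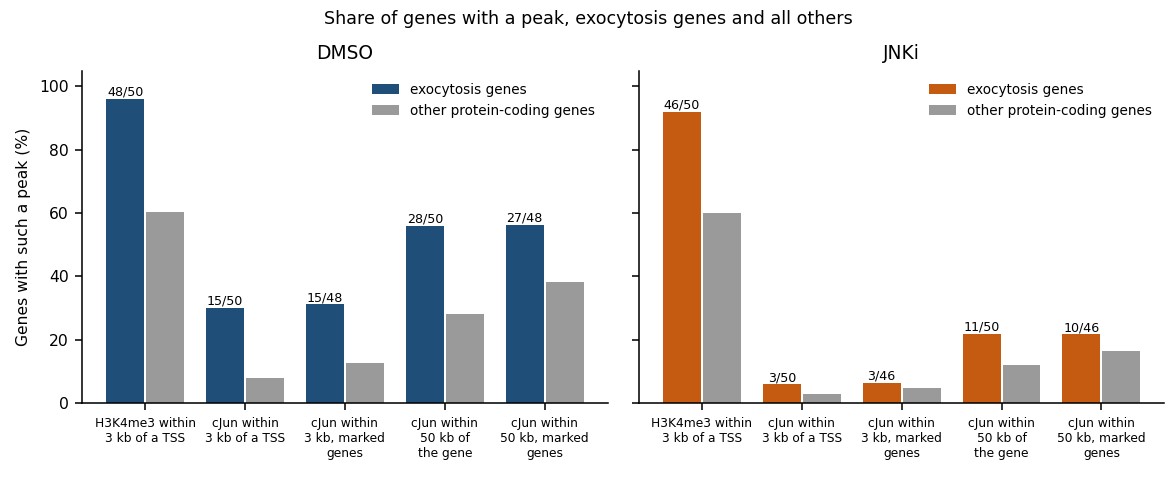
Percentage of genes with each kind of peak in the DMSO list (left) and the JNKi list (right), for the exocytosis genes (coloured bars, with counts above) and all other protein-coding genes (grey bars). Marked genes are those with an H3K4me3 peak within 3 kb of a TSS, and cJun peaks at a TSS were found at 15 of 50 exocytosis genes in DMSO and 3 of 50 in JNKi.

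Both DMSO-only marks were weak and narrow. At *Doc2b* the replicate peaks measured 472 and 469 bp, with −log10 p of 11.3 and 11.1. At *Rab3c* they measured 326 and 523 bp, with −log10 p of 7.40 and 7.24. Both had an irreproducible discovery rate (IDR, low where replicates rank a peak alike) of 0.306, and with the IDR held to 0.05 neither remained in the DMSO list. By comparison, *Rab27a*, whose product recruits effectors to the insulin granule, carried peaks of 4136 and 4274 bp in DMSO and 4169 and 3832 bp in JNKi.

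The width of the mark ranged from 494 to 6753 bp within the set in DMSO, while its median was close to that of other marked genes. The median width was 2713 bp in DMSO (interquartile range 2024 to 3776 bp, 48 genes), against 2576 bp (1855 to 3399 bp) for the 13140 other marked genes. In JNKi it was 2756 bp (46 genes) against 2642.5 bp (13016 genes). The medians of the replicate columns taken singly were 2586.5 and 2692 bp in DMSO, against 2446 and 2495 bp for other marked genes. For JNKi they were 2749.5 and 2637.5 bp, against 2589.5 and 2463 bp. The set was thus the wider in each column. It was the narrower in DMSO, at 2494 against 2570 bp, when only the 5′ end of each gene was used. By strength the exocytosis genes stood higher, with a median percentile of −log10 p among all H3K4me3 peaks of 78.4 in DMSO and 81.7 in JNKi, against 70.2 and 70.1 for other marked genes. In DMSO 15 of 48 genes ranked at or above the 90th percentile of all peaks, against 17.8% of other marked genes, and 8 below the 50th, against 23.7%.

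The 5 widest marks in DMSO were at *Syt13*, *Scg3*, *Napa*, *Scg2* and *Rims2*. *Syt13* encodes a synaptotagmin that does not bind calcium, and its replicate peaks measured 6753 and 6038 bp. *Scg3*, which encodes a granin that sorts other granins to the granule membrane, had peaks of 5670 and 6003 bp. *Napa*, the gene of α-SNAP, had 5749 and 5922 bp. *Scg2*, the gene of secretogranin II, had 5768 and 5620 bp, and *Rims2*, which encodes a Rab3-binding scaffold, had 5426 and 5619 bp. The 5 narrowest were *Doc2b*, *Rab3c*, *Cadps2*, *Rab3b* and *Rims1*. *Cadps2*, a CAPS family priming gene, had 620 and 760 bp, *Rab3b* 901 and 1124 bp, and *Rims1*, the paralogue of *Rims2*, 1042 and 1133 bp. Paralogues could differ widely, as *Rims1* did from *Rims2*, and *Cadps*, the other CAPS gene, had 3759 and 3767 bp.

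By role, granule cargo and vesicle genes had a median of 4352 bp over 5 genes in DMSO, close to the 4332 bp of the 2 disassembly genes. In JNKi the order turned, at 4086 and 4685 bp. The DMSO widths of granule cargo and vesicle genes ran from 3024 bp (*Sv2a*, a vesicle glycoprotein) to 6003 bp (*Scg3*). The disassembly genes *Nsf* and *Napa* had 2723 and 5941 bp. Vesicle SNAREs had a median of 3037 bp, from 2140 bp at *Vamp1* to 3802 bp at *Vamp2*, the main VAMP of the insulin granule. Target SNAREs spread from 1395 bp at *Stx2* to 5036 bp at *Snap25*. The plasma membrane syntaxin *Stx1a*, the partner of *Snap25* in insulin secretion, had only 1500 and 1637 bp. Synaptotagmins had a median of 2557 bp over 11 marked genes. *Syt7*, a calcium sensor of insulin granules, had 2620 and 2686 bp, and *Syt9* had 2933 and 2890 bp. Priming and clamping genes had a median of 2107.5 bp, and Rab and effector genes 2309 bp.

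**Figure D2:**
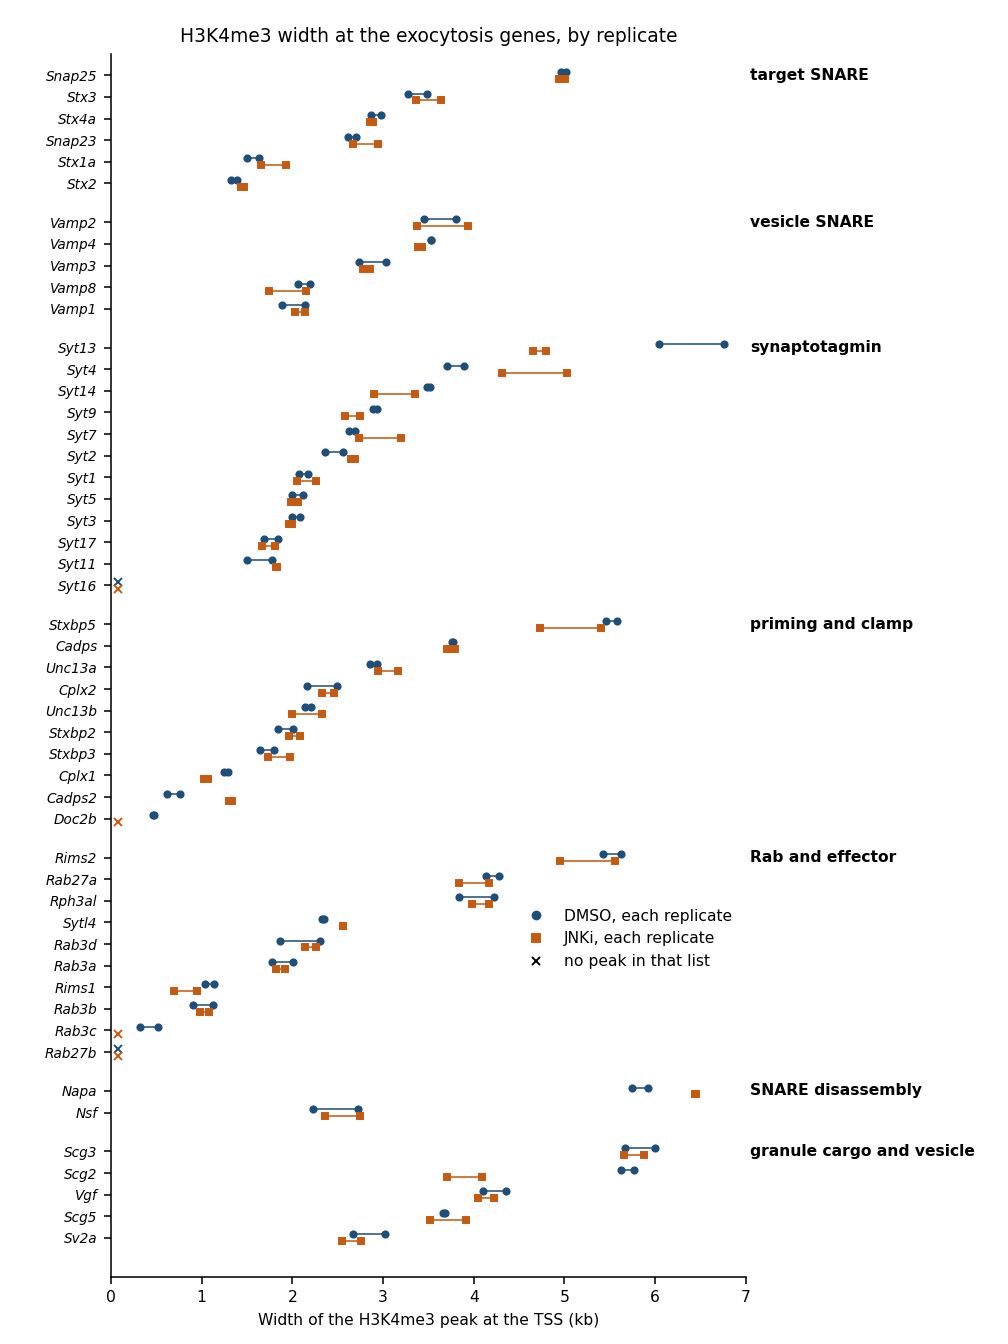
Width in kb of the highest-ranked H3K4me3 peak at each exocytosis gene, grouped by role, with both replicates of DMSO (blue circles) and of JNKi (orange squares) joined by a line and crosses where a list holds no peak. Most pairs overlap or adjoin between treatments, while *Scg2* and *Syt13* lie lower and *Syt4* and *Cadps2* higher in JNKi.

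Between treatments the marks differed little in width. The ratio of mean widths, JNKi over DMSO, had a median of 1.00 over the 46 genes with overlapping peaks in both lists, and ranged from 0.684 to 1.92. With 2 replicates a side no exact test can reach 0.05, so a gene was given a direction only where both replicate widths of one treatment lay beyond both of the other. The mark was wider in JNKi at 10 of 46 genes, against 20.3% of other genes, and narrower at 8, against 15%. These shares are near the background and single out nothing about the set. The wider genes were *Stx1a*, *Stx2*, *Syt2*, *Syt4*, *Syt7*, *Syt11*, *Unc13a*, *Cadps2*, *Sytl4* and *Napa*, and the narrower ones *Vamp4*, *Syt9*, *Syt13*, *Syt14*, *Stxbp5*, *Cplx1*, *Rims1* and *Scg2*. By percentile of −log10 p, 8 genes were higher in JNKi by the same rule, against 13.9% of other genes, and 13 lower, against 22.7%.

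Only 5 of these 18 genes differed in mean width by 20% or more of the DMSO mean. Of 46 genes, 2 were wider, against 3.16% of other genes, and 3 narrower, against 2.33%. The narrower count is 6.52% of the set but rests on 3 genes, and the genes are given as a description. *Scg2* measured 5768 and 5620 bp in DMSO and 4086 and 3702 bp in JNKi, a ratio of 0.684. *Syt13* measured 6753 and 6038 bp in DMSO and 4801 and 4652 bp in JNKi, a ratio of 0.739. *Rims1* measured 1042 and 1133 bp in DMSO and 954 and 696 bp in JNKi, a ratio of 0.759. That the replicates of the treatments did not overlap in these 3 genes follows from the rule that gave them a direction. *Scg2* and *Syt13* were also the members called by limma (empirical Bayes linear models with Benjamini-Hochberg adjustment), fitted to the log2 widths of all 12812 genes with overlapping peaks, at an adjusted p below 0.05, against 0.627% of other genes narrower and 1.13% wider. The log2 ratio was -0.55 ± 0.06 (SE) at *Scg2*, with an adjusted p of 0.00328, and -0.43 ± 0.06 at *Syt13*, with 0.012. Neither call held without limma's trend and robust options, where the adjusted p was 0.0708 and 0.159. With 1 replicate column left out in turn, it ran from 0.0336 to 0.0729 at *Scg2* and from 0.0192 to 0.298 at *Syt13*. *Rims1* had an adjusted p of 0.71, and limma called 0 members wider, with 3 of 46 wider at an unadjusted p below 0.05, against 4.58% of other genes. In the other direction, *Syt4*, a synaptotagmin linked to β cell maturation, measured 3893 and 3705 bp in DMSO and 5023 and 4315 bp in JNKi, a ratio of 1.23. Its DMSO windows held 2 peaks and its JNKi window 1, and the summed widths were alike, at 5008 bp in DMSO and 5023 bp in JNKi. *Cadps2* measured 620 and 760 bp in DMSO and 1336 and 1307 bp in JNKi, a ratio of 1.92. Here too DMSO held 2 peaks and JNKi 1, with summed widths of 1358 and 1380 bp, so at neither gene was the mark 20% wider when its peaks were summed. At *Scg2* and *Syt13* the windows held 1 peak in each list. Most of the stretch marked in DMSO alone lay over 3 kb from a TSS at both. A separate JNKi peak there would not have been counted, and splitting was not tested. Of the 5 genes, *Syt13* and *Syt4* alone had an IDR of at most 0.05 in both lists. *Scg2* had 0.306 in DMSO, *Rims1* 0.282 in JNKi and *Cadps2* 0.0906 in DMSO and 0.282 in JNKi. The JNKi peak of *Cadps2* was among the weakest of the list, with −log10 p of 3.29 and 14.0.

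Replicates agreed on width more closely than on p in a few wide marks. The median distance between replicate widths was 5.97% of the smaller in DMSO and 6.18% in JNKi. The percentiles of the replicates were at most 10 apart at 44 of 48 genes in DMSO and 41 of 46 in JNKi. At *Scg2* in DMSO, however, −log10 p was 624 in the first replicate column and 4.80 in the second, at nearly equal widths, which put the merged peak at the 4.14th percentile. *Vamp2* in JNKi had 603 and 6.78, and *Napa* in JNKi 579 and 19.8. Replicate percentiles lay over 50 apart in 1.79% of all DMSO and 1.59% of all JNKi H3K4me3 peaks, so a low rank at these 3 genes is a value of 1 replicate.

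Promoter sequence was of the kind usual for marked genes. Over the 250 bases before and 50 after the 5′ end of each gene, the ratio of observed to expected CpG had a median of 0.736 in the exocytosis genes, against 0.529 in other genes and 0.737 in other genes marked in DMSO. GC content had medians of 61.3%, 55% and 60.0%. The granin gene *Vgf* stood apart, with a CpG ratio of 0.0530 at its annotated 5′ end. A CRE (TGACGTCA, its own reverse complement) was present in this promoter window at 4 of 48 marked exocytosis genes, *Snap25*, *Vamp3*, *Stxbp3* and *Scg2*, and at 3.36% of other marked genes. Within 3 kb of any TSS it was found at 7 of 48 marked genes, adding *Vgf*, *Napa* and *Rab27a*, and at 8.90% of other marked genes. All 7 sites lay inside an H3K4me3 peak in both lists. They are shown here because CRE is a site that cJun and its ATF partners can bind, in GRCm38 and in the sense of the gene, with the CRE in capitals. For *Scg2* and *Napa*, where it lies in a 5′ untranslated exon, 30 bases are shown.
Snap25: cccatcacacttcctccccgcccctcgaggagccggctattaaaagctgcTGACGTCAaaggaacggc
Vamp3: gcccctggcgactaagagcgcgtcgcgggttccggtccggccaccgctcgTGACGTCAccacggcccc
Stxbp3: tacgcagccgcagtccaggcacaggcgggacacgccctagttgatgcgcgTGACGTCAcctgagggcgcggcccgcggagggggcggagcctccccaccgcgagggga
Scg2: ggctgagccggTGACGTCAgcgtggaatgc
Vgf: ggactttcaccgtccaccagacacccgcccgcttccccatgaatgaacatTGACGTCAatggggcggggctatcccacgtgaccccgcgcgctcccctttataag
Napa: gcaggcctgggTGACGTCAacgcagcgggc
Rab27a: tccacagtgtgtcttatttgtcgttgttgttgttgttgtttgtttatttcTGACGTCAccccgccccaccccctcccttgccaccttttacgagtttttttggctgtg

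With the coordinates of the stretch shown, the CRE of *Snap25* (chr2:136713385-136713452, plus strand) lay 15 bases before a TSS, that of *Vamp3* (chr4:151057954-151058021, minus strand), the gene of cellubrevin, 14 bases before, and that of *Stxbp3* (chr3:108840553-108840660, minus strand), a Munc18 gene, 80 bases before. The *Vamp3* site also lies in an intron of *Camta1*. In *Vgf* (chr5:137030155-137030259, plus strand) it lay 87 bases before an internal TSS. In *Scg2* (chr1:79440076-79440105, minus strand) it lay 30 bases after a TSS and in *Napa* (chr7:16098562-16098591, plus strand) 118 bases after. In *Rab27a* (chr9:73045874-73045981, plus strand) it lay 1070 bases after a TSS, in an intron. Of the 7 sites, only that of *Scg2* fell inside a cJun peak, in DMSO and not in JNKi, 173 bases from the summit. The *Napa* site was 179 bases from a DMSO cJun summit but outside the peak, and the *Vamp3*, *Stxbp3* and *Rab27a* sites were over 50 kb from any.

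Matches to the binding site of REST, a repressor of neuronal and endocrine genes in other tissues, were also searched, as the blocks TCAGCACC and GGACAG with 2 bases between them on either strand. They were found within 3 kb of a TSS at 2 of 48 marked exocytosis genes, *Snap25* and *Syt4*, and at 0.518% of other marked genes. In *Snap25* there were 2 copies in an intron, the first 818 bases after a TSS (chr2:136714278-136714365, plus strand), both beneath the H3K4me3 peak in both lists. The blocks are in capitals.
Snap25: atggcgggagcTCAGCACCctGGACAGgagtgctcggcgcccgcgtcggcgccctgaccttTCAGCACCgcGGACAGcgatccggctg

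cJun was found at a larger share of these promoters than of others, in the list without JNK inhibition. A cJun peak lay within 3 kb of a TSS at 15 of 50 exocytosis genes in DMSO, against 7.85% of other genes. Among genes with an H3K4me3 peak the figures were 15 of 48, against 12.6%. In JNKi a cJun peak was found at 3 of 50 genes, against 2.90%, or 3 of 46 marked genes, against 4.71%. With the IDR held to 0.05 the counts fell to 1 in DMSO, against 0.912% of other genes, and 0 in JNKi, against 0.631%. With 0.01 they fell to 0 in both, against 0.507% and 0.290%. The set was then not above other genes in JNKi at 0.05 or in either list at 0.01. Counts of 0 or 1 in 50 genes are too small to place it above or below such shares. A promoter peak in the DMSO list alone was found at 12 exocytosis genes, against 5.89% of others, and a peak in both lists at 3, against 1.96%. The DMSO list is the longer. Among only the strongest 1632 DMSO peaks, as many as the JNKi list holds, 4 exocytosis genes had a cJun peak (*Syt2*, *Syt3*, *Cadps* and *Napa*), against 3.03% of other genes. Of the 15 promoter peaks in DMSO, 3 (20.0%) overlapped a JNKi peak, near the 21.6% of 1728 peaks at other promoters.

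These peaks were of middling rank. Their median percentile in the DMSO list was 49, against 50.2 for peaks at other promoters, and their ranks ran from 467 to 4525 of 4960. The IDR ran from 0.0485 to 0.729, and at most 0.05 was met by 1 of the 15, at *Syt3*, and by 9.78% of peaks at other promoters. All 15 overlapped an H3K4me3 peak, as did 94.0% of the others. The IgG signal at these sites was not analysed here.

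The cJun peaks were unevenly spread over the roles. They were present in DMSO at 4 of 5 granule cargo and vesicle genes, at 5 of 12 synaptotagmins, at both disassembly genes, at 2 of 6 target SNAREs and at 2 of 10 priming and clamping genes. None was found at the 5 vesicle SNAREs or the 10 Rab and effector genes. With groups this small the roles are a description.

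Among granule cargo genes, the *Scg3* peak (chr9:75683634-75684347) had its summit 3 bases from a TSS, in an untranslated exon, with −log10 p of 5.75 and 13.2 in the DMSO replicates and 4.21 and 9.10 in JNKi. The *Scg2* peak (chr1:79439652-79440315) had 11.9 and 3.87, with its summit 125 bases after a TSS. The *Scg5* peak (chr2:113828406-113829349) had 4.63 and 6.38, with its summit 140 bases before the TSS. *Scg5* encodes 7B2, the chaperone of a prohormone convertase. The *Vgf* peak (chr5:137032357-137033323) had 5.87 and 13.4, with its summit 2454 bases after a TSS, in a coding exon. Of the 4 genes, *Scg3* alone also had a peak in JNKi.

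Among synaptotagmins, *Syt3* and *Syt2* had the strongest signal and kept a peak in JNKi. The *Syt3* peak (chr7:44382777-44384518) had −log10 p of 12 and 19.5 in DMSO, with its summit 743 bases before a TSS, in an intron of the overlapping gene *1700008O03Rik*. In JNKi it was split in 2 peaks, with 5.90 and 5.52 in one and 5.01 and 5.53 in the other, all below both DMSO values. The *Syt2* peak (chr1:134712000-134714182) had 15.1 and 11 in DMSO and 6.25 and 5.89 in JNKi. Its replicates were 1633 and 2183 bp wide in DMSO and 1538 and 2105 bp in JNKi, with the summit in an intron, 66969 bases from the 5′ end of the gene and 4346 bases after an internal TSS, outside the 3 kb window that the peak overlaps. −log10 p depends on the depth of each library, for which only a nominal target common to all samples is given, so lower values in JNKi cannot be read as less binding at these sites. *Syt1*, *Syt11* and *Syt13* had weaker peaks in DMSO alone, with −log10 p between 3.59 (*Syt13*) and 6.88 (*Syt11*).

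Of the other promoter peaks, *Napa* had the narrowest and one of the strongest, 196 and 203 bp wide with −log10 p of 11.9 and 14.2, in a coding exon. *Nsf*, the partner ATPase, had 3.59 and 6.85. *Cadps* had 17.1 and 7.68, its summit 966 bases after a TSS. *Stxbp5*, the gene of tomosyn, which holds target SNAREs in an inactive complex, had 6.77 and 8.54. Of the target SNAREs, *Snap25* had 13.1 and 6.34, its summit 964 bases upstream, and *Stx3*, which serves granule-to-granule fusion, 5.58 and 8.04.

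**Figure D3:**
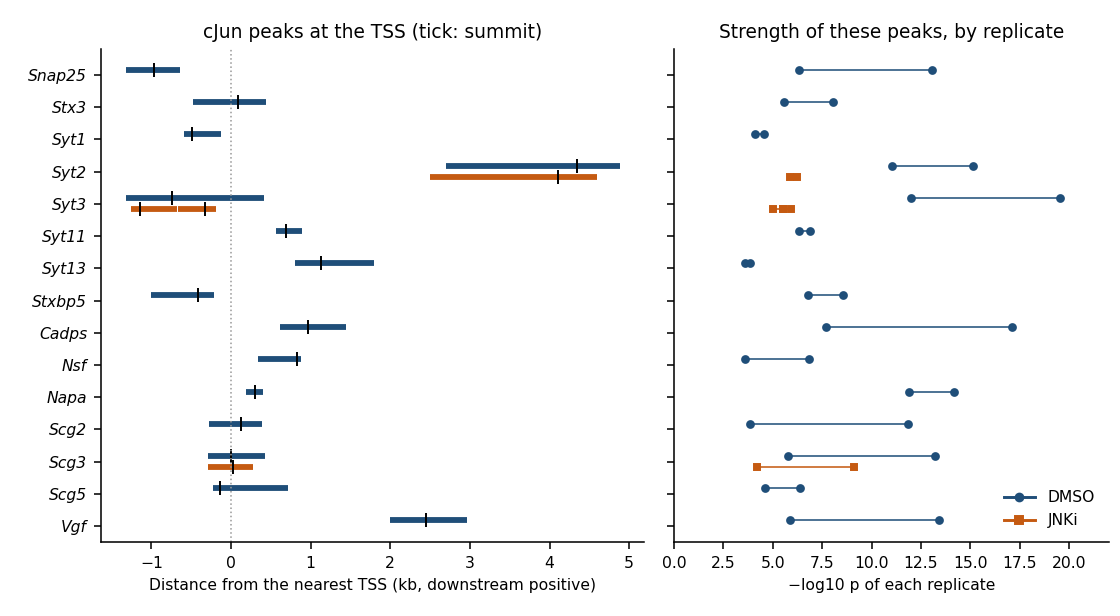
Left, extent of each cJun peak at an exocytosis gene relative to the nearest TSS in kb (downstream positive, black ticks mark summits) in DMSO (blue) and JNKi (orange). Right, −log10 p of each replicate for the same peaks. Peaks in JNKi remain at *Syt2*, *Syt3* and *Scg3*, and 12 of the 15 DMSO summits lie within 1 kb of a TSS.

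Neither an AP-1 site (TGACTCA or TGAGTCA, which are each other's reverse complement) nor a CRE lay within 100 bases of any of the 15 summits. At other promoter peaks in the DMSO list an AP-1 site was found in 4.75% and a CRE in 1.22%. An AP-1 site was not rare nearby: 29 of 48 marked exocytosis genes had one within 3 kb of a TSS, against 65.2% of other marked genes. Sequences around the summits of *Syt2*, *Syt3* and *Scg5* in DMSO are shown as some examples that are upstream or intronic and free of untranslated exon. They are read in the sense of the gene, with the 11 bases centred on the summit in capitals.
Syt2: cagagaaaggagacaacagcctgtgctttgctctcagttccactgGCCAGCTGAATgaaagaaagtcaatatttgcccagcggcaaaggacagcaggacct
Syt3: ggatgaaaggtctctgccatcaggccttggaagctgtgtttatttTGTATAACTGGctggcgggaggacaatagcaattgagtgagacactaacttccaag
Scg5: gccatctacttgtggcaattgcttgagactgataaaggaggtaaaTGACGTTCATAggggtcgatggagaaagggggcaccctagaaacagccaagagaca

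The *Syt2* stretch is chr1:134713596-134713696, plus strand, the *Syt3* stretch chr7:44383309-44383409, plus strand and the *Scg5* stretch chr2:113829211-113829311, minus strand.

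In the DMSO list cJun at the promoter went with the width of the H3K4me3 mark, in this set and in other genes. A cJun peak was found at 1 of 11 exocytosis genes with a mark under 2 kb, at 4 of 17 with 2 to 3 kb, at 3 of 10 with 3 to 4 kb and at 7 of 10 with 4 kb or more. The shares among other genes were 6.98%, 11.1%, 15.3% and 24.1%. The 7 were *Snap25*, *Syt13*, *Stxbp5*, *Napa*, *Scg2*, *Scg3* and *Vgf*, and the 3 without were *Rims2*, *Rab27a* and *Rph3al*, the latter the gene of the Rab effector Noc2. Marks of 4 kb or more were found at 10 of 48 marked exocytosis genes and 13.5% of other marked genes. In JNKi a cJun peak was found at 0 of 9, 2 of 18, 0 of 8 and 1 of 11 genes in the same order of width. The shares of other genes were 2.35%, 3.51%, 6.02% and 10%. With such a peak at only 3 of 46 marked genes of the set, its course with width in JNKi cannot be read. The 10 β cell markers had still wider marks (median 10619 bp over 9 genes in DMSO) and a cJun peak at 7 promoters in DMSO and 5 in JNKi. The part of mark width in the cJun counts was not tested.

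**Figure D4:**
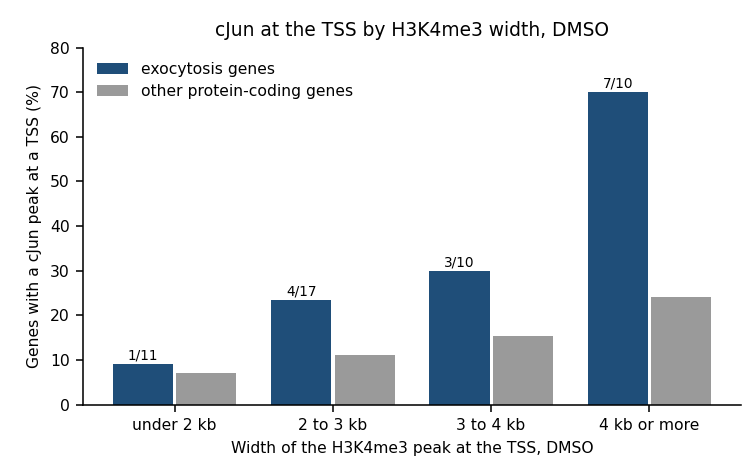
Percentage of genes with a cJun peak within 3 kb of a TSS in DMSO, by the width of the H3K4me3 peak at the gene, for exocytosis genes (blue, counts above the bars) and other protein-coding genes (grey). Both series climb with width, to 7 of 10 exocytosis genes and 24.1% of other genes at 4 kb or more.

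Farther out, a cJun peak lay in or within 50 kb of 28 of 50 exocytosis genes in DMSO, against 28.3% of other genes, and of 11 in JNKi, against 12.2%. Among marked genes the counts were 27 of 48 against 38.1% in DMSO and 10 of 46 against 16.6% in JNKi. Exocytosis genes are long, with a median of 42624 bp against 17384 bp for other genes and 24462 bp for other marked genes, which widens the space searched. With the IDR held to 0.05 the counts fell to 3 in DMSO, against 4.22% of other genes, and to 0 in JNKi, against 2.75%. With 0.01 they fell to 0 in both. The set was then not above other genes in JNKi at 0.05 or in either list at 0.01. Counts of 0 to 3 in 50 genes are too small to place it above or below such shares. Among marked genes under 20 kb the counts in DMSO were 9 of 14 against 36.7%, from 20 to 100 kb 10 of 21 against 36.5%, and at 100 kb or more 8 of 13 against 47.4%. In JNKi they were 5 of 14 against 16.1%, 4 of 20 against 15.8% and 1 of 12 against 20.3%. The share of the longest genes was below that of other genes there, but rests on 1 gene of 12. Counted within 50 kb of a TSS alone, 23 exocytosis genes had a peak in DMSO, against 23.7% of other genes. Among the strongest 1632 DMSO peaks the count was 16, against 12.7%.

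The 28 genes comprised the 15 with a promoter peak and 13 with distal peaks alone. Of 21705 other genes, 6144 had a peak in this space, among them the 1704 with a promoter peak. Of 13140 other marked genes these were 5010 and 1655, beside 27 and 15 of 48 in the set. The counts within 50 kb thus contain the promoter counts, and an excess of distal peaks alone was not tested. In all 53 DMSO peaks lay in this space, 38 of them away from the promoters of the set, and 24 of these 38 overlapped an H3K4me3 peak, against 54.5% of 3564 peaks placed in the same way around other genes. Only 15 of the 38 had an exocytosis gene as the nearest protein-coding gene. For example, the DMSO and JNKi peaks counted for *Stx1a* lay beside the TSS of *Vps37d* and those for *Stx2* beside that of *Rimbp2*, a Rim-binding protein gene that is itself part of the exocytosis machinery.

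Distal peaks nearest to an exocytosis gene included some found under both treatments. Upstream of *Snap25*, the DMSO summit lay 33737 bases and a JNKi summit 33718 bases before the TSS, with −log10 p of 3.68 and 13.6 in DMSO and 9.26 and 16.2 in JNKi. Here the JNKi peak ranked 336 of 1632 and the DMSO peak 4474 of 4960. At *Scg2*, the summits lay 33219 bases (DMSO) and 33429 bases (JNKi) after the nearest TSS and outside any H3K4me3 peak, with 7.63 and 4.72 in DMSO and 8.75 and 7.38 in JNKi. In *Syt16*, which lacked the promoter mark, the DMSO list held 2 peaks in the gene and the JNKi list 1, which overlapped one of them. At these 3 genes the replicate values of the treatments overlapped.

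An AP-1 site lay within 100 bases of the summit at 6 of the 38 distal DMSO peaks, against 10.4% of the distal peaks of other genes, and at 1 of the 11 distal JNKi peaks, against 12.9%. None had a CRE, against 0.786% and 1.75%. More sites at distal than at promoter peaks were thus also seen around other genes, and the difference was not tested. The 3 DMSO sites whose nearest gene was in the set, and the JNKi site near *Snap25*, are shown in the sense of the gene with the AP-1 site in capitals.
Syt7: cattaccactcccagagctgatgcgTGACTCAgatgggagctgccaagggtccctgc
Rab3b: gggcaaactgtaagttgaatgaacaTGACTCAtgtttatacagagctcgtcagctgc
Scg5: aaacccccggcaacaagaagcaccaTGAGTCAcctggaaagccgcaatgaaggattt
Snap25: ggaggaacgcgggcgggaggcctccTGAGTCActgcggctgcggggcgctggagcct

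The *Syt7* site (chr19:10364147-10364203, plus strand) lay between genes, 49 bases from a summit that was 24964 bases before the TSS, with −log10 p of 8.30 and 14.8. The *Rab3b* site (chr4:108906085-108906141, plus strand) lay in an intron, 23 bases from a summit that was 27027 bases from the 5′ end of the gene and 15800 bases after an internal TSS, with 9.31 and 10.7. The *Scg5* site (chr2:113821410-113821466, minus strand) lay in an intron, 42 bases from a summit 7641 bases into the gene, with 5.55 and 9.69. The *Snap25* site (chr2:136678826-136678882, plus strand) lay 72 bases from the JNKi summit at 34527 bases before the TSS, with 4.54 and 10.2.

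A further 65 genes of the same machinery, listed as related families and partners, were read for comparison. H3K4me3 was present at 54 of them in DMSO and 52 in JNKi, and cJun at the TSS of 7 (10.8%) in DMSO and 4 in JNKi. Their marks had a median width of 2405.5 bp and a median percentile of 65.4 in DMSO. The 7 were *Mlph*, *Stx16*, *Rimbp2*, *Myo5a*, *Stxbp6*, *Syt12* and *Syn1*. The share with cJun at a promoter in DMSO thus lay nearer to that of other protein-coding genes than to the 30.0% of the 50 exocytosis genes, with no test of the difference.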

How the data were processed

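CUT&RUN peak lists from 12 samples were analysed, grouped by their labels. Per the study's methods and the submitters' processing notes, the authors trimmed reads with Trimmomatic, aligned them to GRCm38 with Bowtie2 2.4.2, filtered with SAMtools 1.16, called narrow peaks against IgG with MACS2 2.2.7.1 in each replicate, and joined the replicates of a group by IDR. The deposited −log10 p-value is that of MACS2, and the deposited score is the −log10 of the global IDR. No peak was removed for its IDR here. The weakest peaks of all 4 lists had a −log10 p just over 3. The study names a nominal sequencing depth common to all samples, but the lists give no read counts, so no counting interval could be set.

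Protein-coding genes and the TSSs of their basic transcripts came from GENCODE vM21. A peak counted where it overlapped a window by at least 1 bp: 3 kb on each side of any TSS, or the gene with 50 kb on each side. The highest-ranked H3K4me3 peak stood for a gene, and ranks are by −log10 p within a list. Motifs were searched in GRCm38 with pysam 0.24.0 in Python 3.11.15. The members, roles, lists and motifs were chosen with earlier results of these data known, and every member could be named; described in full are members with cJun at a TSS, members lacking H3K4me3 in a list, the 5 widest and 5 narrowest marks, and members given a direction of width. No test was run on counts of peaks, which have 1 value per treatment, since genes are not replicates. Widths have 2 values per treatment and were fitted with limma 3.58.1 (log2 scale, trend and robust options, Benjamini-Hochberg adjustment over all genes fitted), a test added after seeing the data. Strengths were not tested. Window counts and directions were tested on simulated data, with 200 genes. Alternatives varied the IDR, windows, TSS choice and peak choice.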

Additional observations from a re-analysis of the deposited data

How the results depend on the processing

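Counts of genes with H3K4me3 at a TSS stayed within 1.5 times under every alternative run. cJun counts did not hold under a filter on replicate agreement. With the IDR at most 0.05, cJun at a TSS was left at 1 exocytosis gene in DMSO, against 0.912% of other genes, and 0 in JNKi, against 0.631%. Within 50 kb it was left at 3, against 4.22%, and 0, against 2.75%. At most 0.01 left 0 in all, against 0.507% and 0.290% at a TSS and 2.29% and 1.28% within 50 kb. Counts this small are too few to place the set above or below other genes under this filter. Among the strongest 1632 DMSO peaks, an alternative chosen after seeing the data, the counts were 4 at a TSS and 16 within 50 kb. Within 10 kb of the gene, 5 genes had cJun in JNKi, against 6.04% of other genes.

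The median width was 2494 bp in DMSO when only the 5′ end of each gene was used, below the 2570 bp of other genes, and 2999 bp (DMSO) and 2941 bp (JNKi) when peaks of a window were summed. Single replicate columns gave 2586.5 to 2692 bp in DMSO and 2637.5 to 2749.5 bp in JNKi. The median percentile in JNKi was 83.6 and 82.3 with the IDR at most 0.05 and 0.01, 81.0 with the 5′ end only, 80.3 with the widest peak, 80.3 when ranked by the higher replicate (added after seeing the data), and 80.8 in either replicate column. With a 20% difference required, 2 genes were wider in JNKi, against 3.16% of other genes, and 3 narrower, against 2.33%. By percentile 13 were lower, against 22.7%. By limma on log2 widths, added after seeing the data, 0 were wider and 2 narrower, against 1.13% and 0.627% of other genes. Without the trend and robust options both counts were 0, against 0.642% and 0.415%. Leaving out 1 replicate column leaves 1 in a group. The log2 ratio then ran from -0.621 to -0.479 at *Scg2* and from -0.515 to -0.354 at *Syt13*. The IDR filter also removed 10.4% (DMSO) and 14.2% (JNKi) of H3K4me3 peaks at or above the 90th percentile, so it is not a filter on strength alone. No paired analysis was possible because each list already joins its replicates and its columns carry no replicate number.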
